A study of Homo sapiens with 4 samples.

Results

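The 9 genes described here encode the enzymes that write, copy and remove 5-methylcytosine in human DNA. They are the DNA methyltransferases DNMT1, DNMT3A and DNMT3B with the cofactor DNMT3L, the hemimethylation readers UHRF1 and UHRF2, and the dioxygenases TET1, TET2 and TET3. Members were all probes that the platform annotation gives to these symbols, 16 of the 47217 probes on the array, a rule that itself uses no measured value. The symbols themselves were chosen with earlier results of these data known. The 16 probes named 8 of the 9 symbols, out of 18348 symbols named on the array, and expression of TET3 was not analysed here. A probe was called detected on an array when its detection p, a comparison with negative control beads, was under 0.05, and it was kept when detected on at least 2 of the 4 arrays. That left 11 probes for 6 genes.

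Expression was measured on Illumina bead arrays, with biotin-labelled cRNA made from total RNA of H9, a widely used human embryonic stem cell line. All cells were cultured in a serum replacement medium with basic fibroblast growth factor. One group was sampled 24 h after gamma irradiation (24 h, n = 2) and the other before it (0 h, n = 2). The labels give no dose, the title of the series speaks of a low dose, and no unirradiated sample at 24 h was analysed here, so irradiation and a day in culture cannot be told apart. The comparison asks how the transcripts of these cells differ between arrays taken before irradiation and a day after it. The labels do not say whether replicates were separate cultures, so p-values measure only the spread between these arrays, which may be technical.

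In mammalian cells DNMT3A and DNMT3B place new methyl groups on CpG dinucleotides, and DNMT3L, which has no catalytic activity of its own, stimulates them. At each round of replication UHRF1 binds hemimethylated CpG sites and ubiquitinates histone H3, which brings DNMT1 to copy the parental pattern onto the new strand. TET enzymes oxidise 5-methylcytosine, after which base excision repair or further replication removes the mark. Human embryonic stem cells are known for high DNMT3B and TET1.

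Transcript start regions of UHRF1, DNMT1, UHRF2 and DNMT3B are shown first. The copying machinery is tied to S phase, and E2F factors act at many S phase promoters. A part of E2F factors in the results described here was not tested. Each sequence is the 250 bases upstream of an annotated start in RefSeq (GRCh38.p14), 5′ to 3′ on the gene's strand, and the UHRF1 and DNMT3B windows belong to starts inside the gene's annotated span, not to its first base. Capitals mark matches on either strand to an E2F motif (TTTCCCGC, TTTCGCGC, TTTGCCGC or TTTGGCGC) or to CCAAT, the box bound by NF-Y.
UHRF1, chr19:4909251-4909500, plus strand: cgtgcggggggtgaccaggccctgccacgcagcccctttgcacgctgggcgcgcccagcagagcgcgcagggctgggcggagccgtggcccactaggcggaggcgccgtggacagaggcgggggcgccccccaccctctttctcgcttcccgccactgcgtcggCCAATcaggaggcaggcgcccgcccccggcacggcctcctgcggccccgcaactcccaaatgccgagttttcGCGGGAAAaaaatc
UHRF1, chr19:4909894-4910143, plus strand: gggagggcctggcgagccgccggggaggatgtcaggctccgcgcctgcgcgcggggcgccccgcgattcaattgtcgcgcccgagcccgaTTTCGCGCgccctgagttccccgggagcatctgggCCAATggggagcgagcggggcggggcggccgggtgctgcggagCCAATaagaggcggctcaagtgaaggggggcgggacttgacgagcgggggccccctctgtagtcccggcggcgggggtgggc
DNMT1, chr19:10194954-10195203, minus strand: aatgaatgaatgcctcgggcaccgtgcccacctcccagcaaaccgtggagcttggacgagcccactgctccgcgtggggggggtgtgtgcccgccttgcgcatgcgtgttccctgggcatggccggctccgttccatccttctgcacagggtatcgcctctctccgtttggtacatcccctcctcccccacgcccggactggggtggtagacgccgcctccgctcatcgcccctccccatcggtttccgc
UHRF2, chr9:6412949-6413198, plus strand: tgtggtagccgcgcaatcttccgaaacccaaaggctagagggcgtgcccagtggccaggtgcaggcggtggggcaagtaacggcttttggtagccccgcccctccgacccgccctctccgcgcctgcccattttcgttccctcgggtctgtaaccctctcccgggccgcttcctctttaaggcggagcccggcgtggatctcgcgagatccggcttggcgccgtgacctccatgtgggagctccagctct
DNMT3B, chr20:32779602-32779851, plus strand: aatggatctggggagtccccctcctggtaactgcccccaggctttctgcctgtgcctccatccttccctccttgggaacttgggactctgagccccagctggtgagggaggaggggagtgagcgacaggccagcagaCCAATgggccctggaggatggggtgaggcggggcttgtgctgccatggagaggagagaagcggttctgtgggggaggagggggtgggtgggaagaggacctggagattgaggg

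Of 19 such windows for 8 of the members, 2 held an E2F motif, and both belonged to UHRF1. Another UHRF1 window (chr19:4910117-4910366), not shown, held 0 E2F and 0 CCAAT matches. In all, 2.79% of 35116 windows of the same length in the table held one. CCAAT was present in 6 of the 19 windows, among them the UHRF1 and DNMT3B windows shown, against 32.01% of all windows, and no E2F and CCAAT match overlapped. The DNMT3B window held 3 CpG dinucleotides, the DNMT1 window 21, the UHRF2 window 23 and the UHRF1 windows shown 28 and 32, against a median of 11 over all windows. A match describes these letters and is not evidence of binding.

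As a whole, the arrays had 19705 and 20068 detected probes at 24 h, against 20443 and 20433 at 0 h. Median intensities were 143.8 and 134.7 at 24 h, against 158.4 and 175.2 at 0 h. All 4 arrays lay on 1 slide, and their positions differed between groups, so the 2 cannot be told apart. Signals were compared after background correction and quantile normalization on the log2 scale, where the median change over the 11030 tested genes was -0.0050. Normalization evens out brightness between arrays and does not separate position from group. The pluripotency markers listed for this check were detected. Their summed signal over 10 tested markers, DNMT3B among them, was 49282 and 47629 at 24 h against 56524 and 55299.5 at 0 h. No pluripotency marker passed the test, where 2.28% of all genes did, and 8 of the 10 lay below 0, against 50.6% of all genes. GDF3, a ligand of the TGF-beta family, had log2 signals of 7.89 and 7.49 at 24 h against 8.71 and 8.57 at 0 h and stood at -0.94 ± 0.17 (adjusted p = 0.0598, limma), beside L1TD1, an RNA-binding protein, at -0.37 ± 0.19. The core factors, named after their values were seen, did not fall together. NANOG stood at 0.31 ± 0.13 and POU5F1 at 0.22 ± 0.13, with SOX2 and LIN28A each at -0.12 ± 0.14. DNMT3B included, 2 or 3 markers were called lower under 6 of 14 alternatives and 1 with the authors' log2 table. In those 6 settings, from 362 to 1265 of 11030 genes were called lower, and 166 with the authors' table. Of 11 markers of fibroblasts or mesenchyme, 7 were tested and all 7 were above 0, where 50.6% of all genes were below 0. Their summed signal was 21685 and 21288 at 24 h against 12519 and 12628 at 0 h. ACTA2, S100A4, COL1A1, TAGLN and VIM rose, while the collagen COL3A1 and the proteoglycan LUM were detected on no array, and DCN and POSTN on at most 1. Of the markers of the 3 germ layers and of trophoblast, 6 were tested and 0 passed, where 2.28% of all genes did. AFP stood at -0.29 ± 0.18, OTX2 at -0.23 ± 0.25, NES at -0.17 ± 0.11, KRT7 at 0.63 ± 0.30, TFAP2C at 0.66 ± 0.14 and KDR at 0.81 ± 0.16. The part of these markers in the results on the methylation enzymes was not tested. In such bulk samples, fewer cells of a type and less RNA per cell cannot be told apart.

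Among the 6 tested members, DNMT3B and UHRF1 had the largest differences, both lower at 24 h by about 0.7 log2 units, DNMT3A and UHRF2 stood lower by about 0.3, and TET1 and DNMT1 lay near 0. None of these differences passed the adjusted threshold of 0.05 in the limma fit over all genes (0 of 6 members, where 2.28% of all genes passed, 0.925% lower and 1.35% higher). At an unadjusted p under 0.05 there were 3 of 6, all lower, against 30.3% of all genes, of which 15.3% of genes were lower and 15% higher. Changes lay below 0 for 5 of the 6, against 50.6% of all genes, and the median change of the 6 was -0.33. The groups did not overlap for 4 of the 6, all lower at 24 h, against 61.6% of all genes in either direction and 31.3% lower, so a lack of overlap was common on these arrays.

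DNMT3B, the de novo methyltransferase of early embryonic cells, was bright on all 4 arrays. Its brightest probe (ILMN_2328972) had raw intensities of 4944 and 3694 at 24 h, against 10081 and 11646 at 0 h. After normalization its log2 signals were 12.46 and 12.37 at 24 h, against 13.12 and 13.14 at 0 h. Both irradiated arrays lay below both arrays taken before irradiation, and the gap between the groups was several times the spread within either.

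The change of DNMT3B was -0.72 ± 0.11 (SE, 95% confidence interval -0.99 to -0.44), which is 1.64-fold lower at 24 h, with adjusted p = 0.0510 (limma). It ranked 323 by p among 11030 genes, and 4.15% of genes had a change at or below it. The call depends on the processing: DNMT3B passed under 7 of 14 alternatives, with adjusted p from 1.08e-04 to 0.245 over all of them, and its change lay between -0.76 and -0.67 in every one.

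DNMT3B was the member with the most probes, 4, which allows its difference to be read more than once, although probes of a gene share their RNA and are no replicates. The second kept probe (ILMN_1794692) had log2 signals of 11.63 and 12.03 at 24 h, against 12.28 and 12.46 at 0 h. The third (ILMN_2328977) had 10.05 and 9.38 at 24 h, against 10.83 and 10.32 at 0 h. In each of the 3 the 24 h arrays lay below both 0 h arrays, with the widest spread in the third.

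In a fit of all 20361 kept probes, the 3 DNMT3B probes stood at -0.72 ± 0.12, -0.54 ± 0.19 and -0.86 ± 0.31, with limma adjusted p of 0.0810, 0.170 and 0.180. The second stood at -0.34 without replicate 1 at 24 h, and the third at -0.53 without replicate 2 at 24 h. The fourth (ILMN_1734285), annotated to a different transcript from the other 3, was not detected on any array, with a lowest detection p of 0.326. It therefore gives no level for that transcript form.

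UHRF1, the reader that couples methylation to the replication fork, had a difference of like size. Its brighter probe (ILMN_1786065) had raw intensities of 1000.1 and 866.8 at 24 h, against 2145 and 2820 at 0 h. On the log2 scale the signals were 10.04 and 10.21 at 24 h, against 10.77 and 10.95 at 0 h. Both 24 h arrays lay below both 0 h arrays.

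The change of UHRF1 was -0.74 ± 0.13 (95% confidence interval -1.08 to -0.40), 1.67-fold lower at 24 h, with adjusted p = 0.0577 (limma). It ranked 598 by p, and 3.74% of genes had a change at or below it. UHRF1 passed under 6 of 14 alternatives, with adjusted p from 6.18e-04 to 0.27 over all of them.

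The other UHRF1 probe (ILMN_2401352) carried a weak signal, detected on 1 of 2 arrays at 24 h and on both at 0 h. Its log2 signals were 5.50 and 6.07 at 24 h, against 5.52 and 6.24 at 0 h, and the groups overlapped. In the probe fit it stood at -0.10 ± 0.33 (adjusted p = 0.886, limma). With the mean of the pair in place of the brighter probe, the change of UHRF1 was -0.42 (adjusted p = 0.27), so the size of its difference rests on the brighter probe.

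UHRF2, the paralog of UHRF1, which does not replace it in maintaining methylation in mouse embryonic stem cells, was named by 1 probe. Its log2 signals were 7.49 and 7.42 at 24 h, against 7.69 and 7.85 at 0 h. The groups did not overlap, and the change was -0.31 ± 0.12 (95% confidence interval -0.62 to -0.0055, adjusted p = 0.160, limma), with -0.19 without background correction.

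DNMT1, the maintenance methyltransferase that UHRF1 recruits, stood near 0. Its single probe had log2 signals of 12.72 and 12.87 at 24 h, against 12.72 and 12.84 at 0 h. The arrays of both groups lay over each other, and the change was 0.01 ± 0.12 (95% confidence interval -0.30 to 0.33, adjusted p = 0.954, limma).

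The raw intensities of DNMT1 were 6034 and 5339 at 24 h, against 7832 and 9659 at 0 h. The agreement after normalization therefore includes the lower brightness of the 24 h arrays and their smaller range above background. The change of UHRF1 minus that of DNMT1 was -0.75, that of DNMT3B minus that of DNMT1 was -0.73, and that of UHRF1 minus that of UHRF2 was -0.43. These pairs were chosen after their values were seen. For each, an exact two-sided permutation test over the 6 splits of the arrays gave p = 0.333, the smallest it allows with 2 arrays per group.

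**Figure D1:**
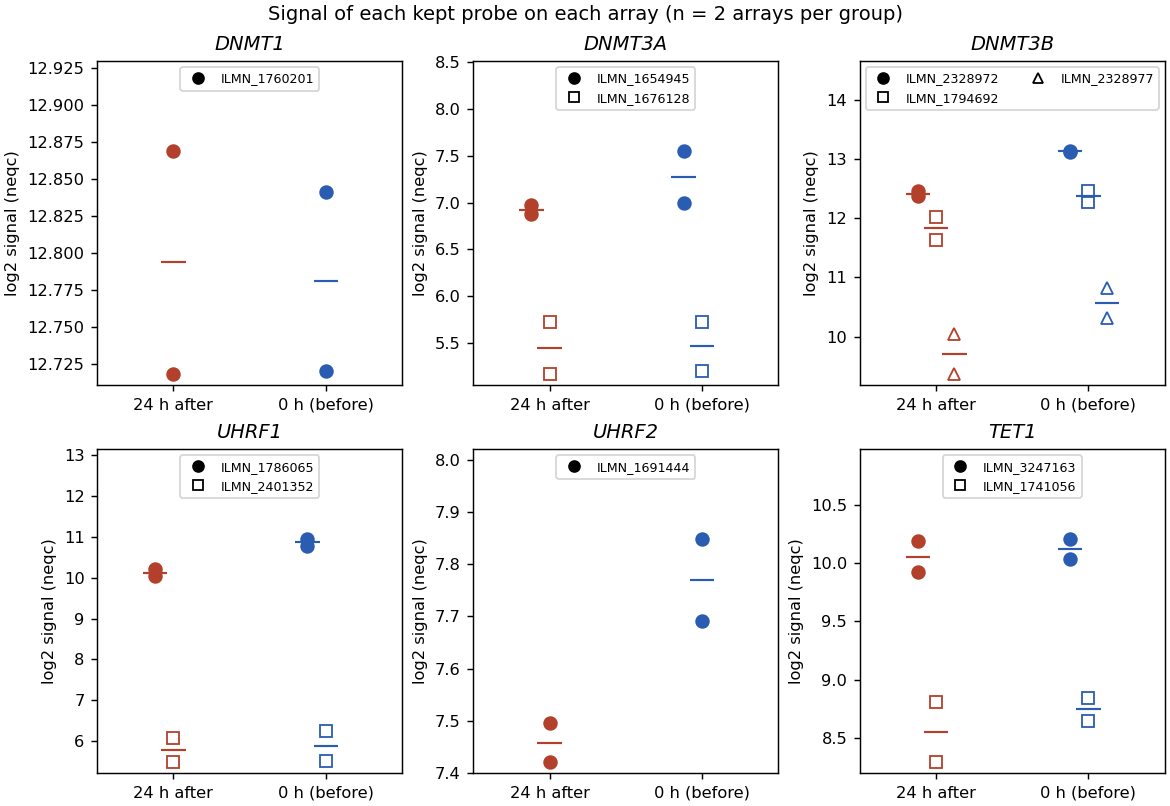
Log2 signal (background-corrected and quantile normalized) of each kept probe of the 6 tested genes on each array, with 24 h left of 0 h; points are arrays, short lines are group means, filled symbols are the probe that stands for its gene, and each panel has its own axis. The 24 h arrays lie below the 0 h arrays for all 3 DNMT3B probes and for the brighter UHRF1 probe, while the DNMT1 arrays span the same range in both groups.

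DNMT3A, the other de novo methyltransferase, gave signals nearer to background. Its brightest probe (ILMN_1654945) had log2 signals of 6.87 and 6.97 at 24 h, against 6.99 and 7.56 at 0 h. The groups did not overlap, but the lower 0 h array lay only just above the 24 h arrays. The change was -0.35 ± 0.21 (95% confidence interval -0.92 to 0.21, adjusted p = 0.333, limma). It was -0.07 without replicate 2 at 0 h and -0.63 without replicate 1 at 0 h, so 1 array sets its size.

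The other DNMT3A probes were at the background. One (ILMN_1676128) was detected on 1 array of each group, with log2 signals of 5.17 and 5.72 at 24 h against 5.73 and 5.20 at 0 h, and stood at -0.02 ± 0.28 (adjusted p = 0.977 in the probe fit, limma). The third (ILMN_1698137) was detected on no array, with a lowest detection p of 0.704. The 3 probes are annotated to 3 different transcripts, so they may read different forms of DNMT3A.

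DNMT3L, the regulatory partner of the de novo enzymes, was named by 2 probes and not tested. One (ILMN_1778357) had detection p of 0.130 and 0.336 at 24 h, against 0.0117 and 0.234 at 0 h, so it was detected on 1 array of the 4. The other (ILMN_2406634) was detected on none, with a lowest detection p of 0.0727. These values show that DNMT3L signal was not well above background here, not that the gene was silent.

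TET1, the TET enzyme most abundant in embryonic stem cells, was detected on all arrays by both of its probes. The brighter (ILMN_3247163) had log2 signals of 10.19 and 9.92 at 24 h, against 10.21 and 10.03 at 0 h. The dimmer (ILMN_1741056) had 8.81 and 8.30 at 24 h, against 8.85 and 8.65 at 0 h. With both probes the groups overlapped, and replicate 2 at 24 h was the lowest array.

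The change of TET1 was -0.06 ± 0.15 (95% confidence interval -0.45 to 0.32, adjusted p = 0.804, limma), and the dimmer probe stood at -0.19 ± 0.22 in the probe fit (adjusted p = 0.626, limma). The interval leaves room for a change in either direction. Under scaling of each array to its 75th percentile in place of quantile normalization the change was -0.22. TET2 was named by 1 probe (ILMN_1788818), which was detected on no array (lowest detection p 0.336) and was not tested.

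Over the 11 kept probes, 10 changes were below 0, where 50.9% of all kept probes were. The groups did not overlap for 6 of the 11, all lower at 24 h, against 57.9% of all kept probes in either direction and 29.3% lower. None of the 11 passed the adjusted threshold in the probe fit, which called 0 of 20361 probes (0%), with 5235 (25.7%, 13.2% lower) at an unadjusted p under 0.05, of which 4 were members, all lower. Without background correction that fit called 2362 probes, 4 of them members.

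**Figure D2:**
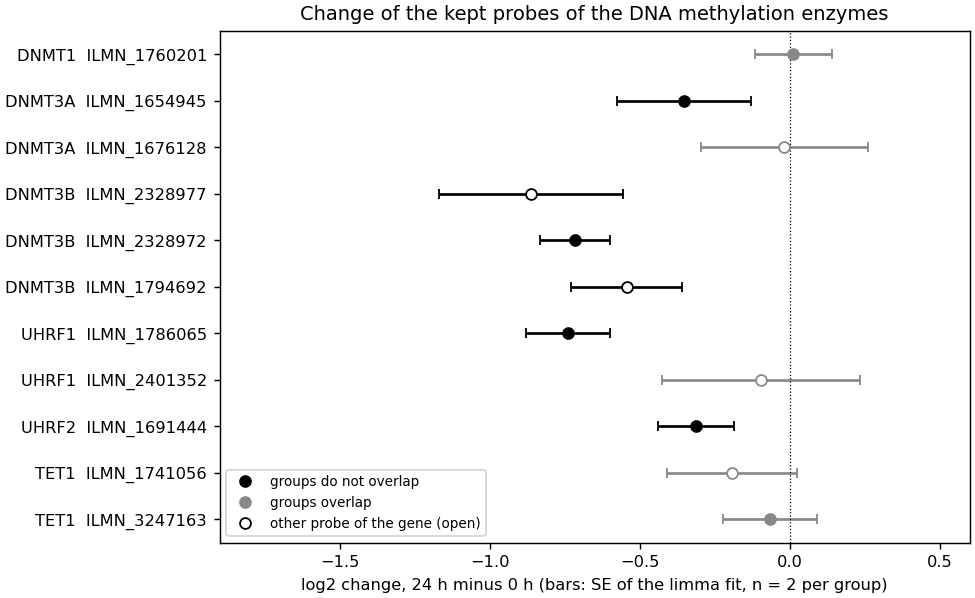
Log2 change (24 h minus 0 h) of the 11 kept probes in the fit of all kept probes; bars are the SE of the limma fit with n = 2 arrays per group, black marks probes whose groups did not overlap, and open symbols mark further probes of a gene. The DNMT3B probes and the brighter UHRF1 probe lie between -0.86 and -0.54, the DNMT1 probe at 0.01.

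The genes whose 4 array values, each centred on its gene's mean, lay closest to UHRF1 were IL6ST, the shared cytokine receptor subunit gp130, ZNF367, a zinc finger protein, and ZDHHC6, a palmitoyltransferase, with root mean square differences of 0.0101, 0.0117 and 0.0182 on the log2 scale. Those closest to DNMT3B were LIAT1, EEF1AKMT3, a lysine methyltransferase of elongation factor 1A, and GCNT1, a glycosyltransferase, with 0.0095, 0.0123 and 0.0157. ZNF367 was undetected at 24 h, with log2 signals of 4.96 and 5.14 below the lowest detected signals of 5.51 and 5.47. Its likeness to UHRF1 therefore rests in part on background values. Likeness over 4 arrays among 11030 genes describes these arrays alone.

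The lists in this and the following paragraphs were chosen with earlier results of these data known. Their counts describe the listed genes and are no test of a pathway. Partners of maintenance methylation gave no call, with 0 of 20 tested members passing, where 2.28% of all genes passed. Their median change was -0.02, against -0.0050 for all genes. The count of calls depends on the processing. Without background correction 3 were lower and 0 higher, where 1100 of 11030 genes were lower and 1099 higher. CBX1, the heterochromatin protein HP1 beta, stood at -0.76 ± 0.11 (adjusted p = 0.0505, limma), with log2 signals of 9.68 and 9.81 at 24 h against 10.49 and 10.53 at 0 h. It passed under 8 of 14 alternatives. NSD1, which writes the histone mark H3K36me2 read by DNMT3A, stood at -0.66 ± 0.18. Without background correction it was smaller, at -0.38, but passed (adjusted p = 0.0332, limma). The histone H3K9 methyltransferase EHMT1 stood at 0.44 ± 0.28, and 1 array sets that size, with 0.84 without replicate 1 at 24 h and 0.040 without replicate 2. Of the 4 tested methyl-CpG readers 0 passed, against 2.28% of all genes. MBD2, which links methylated DNA to the NuRD repressor complex, stood at 0.75 ± 0.12 (adjusted p = 0.0537, limma). Without background correction its change was 0.35 and passed (adjusted p = 0.0275, limma). The other readers named by the rule were ZBTB33 (Kaiso) at -0.30 ± 0.14 and ZBTB4 at 0.22 ± 0.20.

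The list of partners of demethylation had 2 of 21 tested members higher and 0 lower, against 1.35% and 0.925% of all genes, with 15 above 0 and a median change of 0.27. The split depends on the processing. It was 4 higher and 3 lower without background correction, where 1099 of 11030 genes were higher and 1100 lower. With normexp it was the same, where 838 genes were higher and 803 lower. With a trend and robust prior it was 5 higher and 3 lower, where 1257 genes were higher and 1265 lower. APOBEC3C, a cytidine deaminase known for defence against retroviruses, had log2 signals of 7.71 and 7.81 at 24 h, against 6.62 and 6.63 at 0 h. It rose by 1.13 ± 0.11 (adjusted p = 0.0447, limma), and by 0.61 without background correction. D2HGDH, which oxidises D-2-hydroxyglutarate, an inhibitor of TET enzymes, had 9.56 and 9.55 at 24 h against 8.62 and 8.63 at 0 h. It rose by 0.93 ± 0.10 (adjusted p = 0.0447, limma). These 2 genes are therefore a restriction factor and a metabolic enzyme, and neither excises a modified base. The glycosylases TDG, which removes oxidised 5-methylcytosine, and UNG, which removes uracil, are named after their values were seen. They stood at -0.44 ± 0.10 (adjusted p = 0.0798, limma) and -0.54 ± 0.10 (adjusted p = 0.0623, limma), with the 24 h arrays of each below both 0 h arrays. The NEIL glycosylases of the list, named likewise, did not fall with them. NEIL1, detected on 1 of 2 arrays at 0 h, stood at 0.75 ± 0.17 (adjusted p = 0.0777, limma). NEIL2 stood at 0.02 ± 0.11 and NEIL3 at -0.02 ± 0.11. APOBEC3B stood at 0.97 ± 0.14 (adjusted p = 0.0516), and the stress gene GADD45A at 1.00 ± 0.19 (adjusted p = 0.0614). Hybridisation between the similar APOBEC3 genes was not tested.

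In the supply of methyl groups 1 of 18 tested genes was lower and 0 were higher, against 0.925% and 1.35% of all genes, with a median change of -0.11. Without background correction 4 were called lower and 1 higher, where 1100 of 11030 genes were lower and 1099 higher. MAT2A, the methionine adenosyltransferase that makes the methyl donor S-adenosylmethionine outside the liver, had log2 signals of 11.87 and 12.06 at 24 h, against 13.18 and 13.38 at 0 h. It fell by 1.31 ± 0.14 on the log2 scale (adjusted p = 0.0447, limma), with the 24 h arrays far below both 0 h arrays. MTRR, which reactivates methionine synthase, stood at -0.74 ± 0.11 (adjusted p = 0.0510), and MTAP, which salvages methionine, at -0.65 ± 0.10 (adjusted p = 0.0526). MTRR passed under 7 of 14 alternatives and MTAP under 6.

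Genes known to be silenced by promoter methylation outside the germ line were mostly dark in both groups, with 21 of 25 named members not detected on 2 arrays. Of the 4 tested, 0 passed and 2 stood below 0, where 2.28% of all genes passed and 50.6% stood below 0. DAZL, an RNA-binding protein of germ cells, had log2 signals of 7.67 and 7.52 at 24 h against 8.34 and 8.19 at 0 h, a change of -0.67 ± 0.12 (adjusted p = 0.0598, limma). The cancer-testis gene MAGEA4 was not well above background on either 24 h array. It did not pass (adjusted p = 0.154, limma) and had a bound of at least 1.04-fold lower. TKTL1 stood at 0.33 ± 0.49. Of 13 tested imprinted genes 0 passed, where 2.28% of all genes did, and their median was 0.06. L3MBTL1 stood at 0.90 ± 0.21 (adjusted p = 0.0771, limma), MAGEL2 at 0.39 ± 0.15 and PEG10 at -0.29 ± 0.11. Without background correction L3MBTL1 stood at 0.43 and passed (adjusted p = 0.0183, limma).

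The replication genes set beside UHRF1 had 2 of 21 tested members lower and 0 higher, against 0.925% and 1.35% of all genes, with 17 below 0, against 50.6% of all genes, and a median of -0.13. RRM2, the small subunit of the enzyme that makes deoxyribonucleotides, fell by 1.26 ± 0.16 on the log2 scale (adjusted p = 0.0477, limma) and CDC6, which loads the replicative helicase, by 1.13 ± 0.10 (adjusted p = 0.0447, limma). CDC6 lay near the lowest detected signal at 24 h, with 5.61 on both arrays against 6.75 and 6.74 at 0 h, and its change was -0.43 without background correction. GINS1, detected on 1 of 2 arrays at 24 h, stood at -0.84 ± 0.27, at -0.45 without replicate 2 at 24 h and at -0.30 without background correction. Every count of calls in these lists was 0 when any single array was left out, as it was over all genes.

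**Figure D3:**
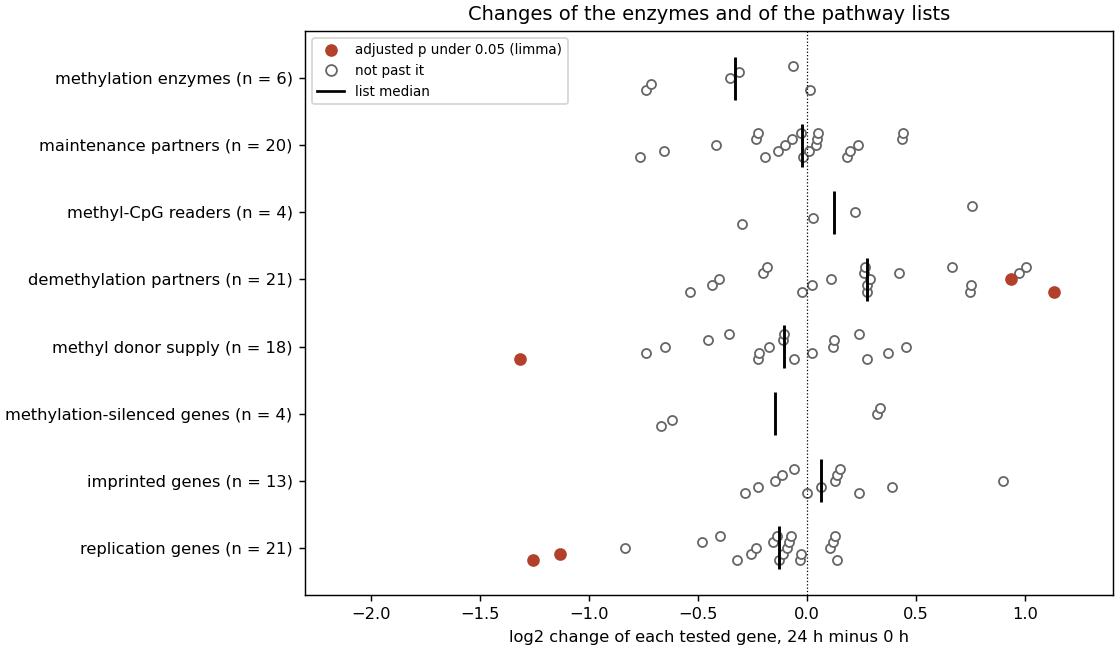
Log2 change (24 h minus 0 h) of each tested gene among the methylation enzymes and in each pathway list; red points passed adjusted p of 0.05 in the limma fit over 11030 genes, and vertical lines are medians. The passing genes are APOBEC3C and D2HGDH above 0 and MAT2A, RRM2 and CDC6 below 0, and none is a methylation enzyme.

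**Figure D4:**
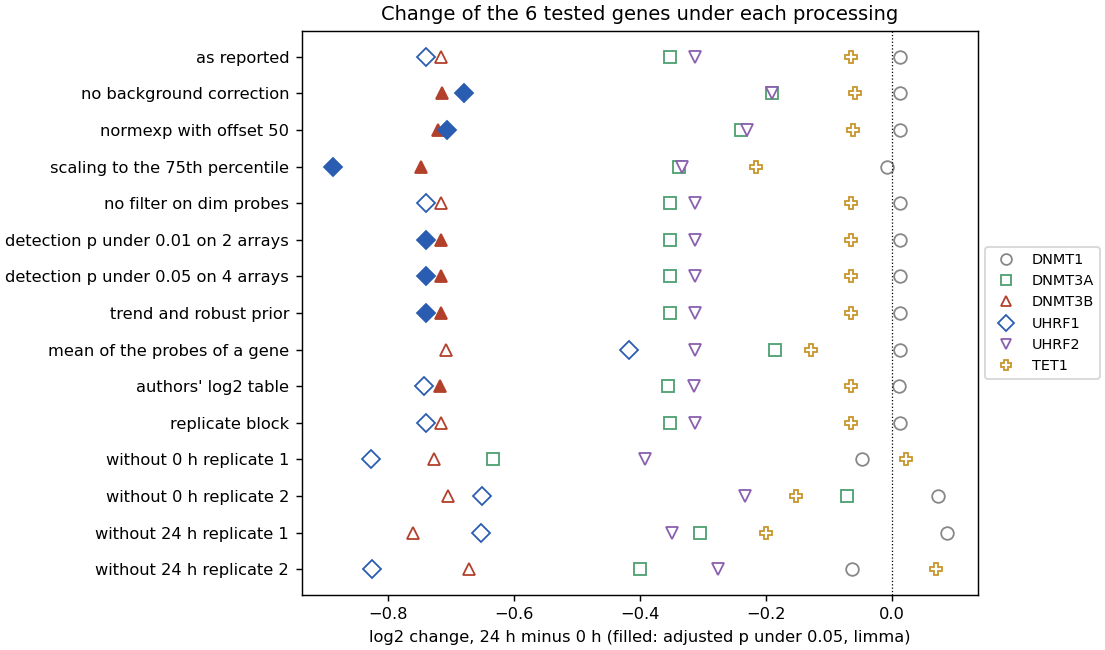
Log2 change (24 h minus 0 h) of the 6 tested genes under each processing, from the setting as reported to each array left out; filled symbols passed adjusted p of 0.05 in that limma fit. DNMT3B stays between -0.76 and -0.67, UHRF1 lies between -0.89 and -0.42, and DNMT1 and TET1 stand on both sides of 0.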

How the data were processed

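Bead intensities of 4 arrays, 2 from H9 cells 24 h after gamma irradiation and 2 from before it, were read from the deposited table, which per the file headers holds a mean intensity and a detection p-value per probe and array, not normalized. The authors' deposited log2 table correlated at 0.99998 with the values used here and differed by at most 0.0563. The submitters' processing notes name limma, with steps and version not given in the sources used here.

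Background correction and quantile normalization used neqc of limma 3.58.1 (R 4.3.3), with the detection p-values and an offset of 16. Probes with detection p under 0.05 on at least 2 arrays were kept (20361). For the gene test the brightest of a gene's 14235 kept probes with 1 symbol stood for it (11030 genes), and a second fit took every kept probe. Both used lmFit and eBayes, two-sided, with Benjamini-Hochberg adjustment over all features and a threshold of 0.05. Changes are 24 h minus 0 h. A gene undetected in a group has a bound: the bright group's mean over the dim group's mean of, on each array, its own signal or the lowest detected signal, whichever was higher. The fits were tested on simulated data that met their assumptions, which these arrays may not.

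Named were all members, and of each list the genes that passed and the 3 with the largest changes, and the 3 genes closest in pattern to UHRF1 and to DNMT3B. Some list genes were also named after their values were seen, as stated where they appear. The members and lists were chosen with earlier results of these data known. Their number, 2 arrays per group, limits the precision. Alternatives covered background, normalization, filter, prior, probe choice, the authors' table, the replicate number as a block and each array left out. Some list members were not analysed here.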

Additional observations from a re-analysis of the deposited data

How the results depend on the processing

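The number of genes called (251) was 2199 without background correction, 1641 with normexp and an offset of 50, 721 with scaling to the 75th percentile, 1240 with detection p under 0.01 on 2 arrays, 1370 with detection on all 4 arrays, 2522 with a trend and robust prior, 388 with the authors' log2 table and 0 with no filter on dim probes, and 336 with the mean of a gene's probes. In the probe fit (0 called) the first 2 of these gave 2362 and 1212, the stricter filters 1091 and 1261, and the trend and robust prior 3027; scaling to the 75th percentile, no filter, the authors' table and, chosen after seeing the data, only probes with 1 symbol gave 0. With any array left out both fits called 0, from 0 to 0. The causes were not tested. Of the 6 members, 2 passed without background correction, with normexp, with scaling to the 75th percentile, with either stricter filter and with the trend and robust prior, and 1 with the authors' table. Of the 11 member probes, 4 passed without background correction, 2 with normexp, 2 with either stricter filter and 3 with the trend and robust prior. Kept member probes whose groups did not overlap numbered 6, and 5 with scaling to the 75th percentile.

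DNMT3B passed at -0.71 without background correction (adjusted p = 0.00144, limma), -0.72 with normexp (0.0119), -0.75 with scaling to the 75th percentile (0.0415), -0.72 with detection p under 0.01 on 2 arrays (0.0273), with detection on 4 arrays (0.0228), with the trend and robust prior (1.08e-04) and with the authors' table (0.0492). UHRF1 passed at -0.68 (0.00281), -0.71 (0.0155), -0.89 (0.0404), -0.74 (0.0323), -0.74 (0.0267) and -0.74 (6.18e-04) under the first 6 of these settings.

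DNMT1 stood at -0.0073 with scaling to the 75th percentile, where the weaker probes of DNMT3A and UHRF1 stood at 0.28 and 0.10. OTX2 stood at 0.11 with the mean of its probes. With 1 array left out, changes ranged from -0.062 to 0.088 for DNMT1, -0.20 to 0.070 for the brighter TET1 probe, -0.45 to 0.064 for the dimmer one, -0.29 to 0.26 for the weaker DNMT3A probe, -0.45 to 0.26 for the weaker UHRF1 probe, -0.48 to 0.021 for OTX2, -0.26 to 0.93 for TKTL1 and -0.015 to 0.45 for ZBTB4. Without background correction KDR stood at 0.39 and DAZL at -0.44, and both passed (adjusted p = 0.0242 and 0.0123, limma). KRT7 at 0.22, AFP at -0.18 and MAGEL2 at 0.24 did not pass there. With the mean of its probes PEG10 stood at -0.57. With 1 array left out L1TD1 ranged from -0.60 to -0.13, KRT7 from 0.30 to 0.95 and AFP from -0.52 to -0.073. DNMT3A, UHRF2, DNMT3B and UHRF1 kept their direction under all 14 alternatives. MAT2A, D2HGDH, APOBEC3C, RRM2 and CDC6 each passed under 8 of 14 alternatives, with 0 sign changes.

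Labels give both groups replicates 1 and 2. Deviations of same-numbered arrays correlated at 0.154 over 11030 genes, and nothing in the labels says that a number pairs arrays. With the replicate number as a block 0 genes and 0 probes passed (3828 genes at an unadjusted p under 0.05), and DNMT3B stood at -0.72 and UHRF1 at -0.74, each with adjusted p = 0.07 (limma). Probes near background, such as those of DNMT3L and TET2, limit what can be said of dim members.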
